A study of Mus musculus with 6 samples.

Results

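The synaptotagmin genes Syt1, Syt2, Syt3, Syt4, Syt5, Syt7, Syt11, Syt12, Syt13 and Syt17 were followed in mouse hippocampus, as 10 of the 52550 genes in the count table and as the 23 of 40961 listed splicing events that belong to them. They were chosen by symbol, with their gene counts and splicing values in both groups already seen, so each count of called members describes the data and is not independent evidence of a direction. The other synaptotagmin genes in the table, Syt6, Syt8, Syt9, Syt10, Syt14, Syt15 and Syt16, were added so that the family of 17 genes could be described whole.

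RNA of the hippocampus was sequenced in 3 control libraries and in 3 libraries labelled L-DL KD. The mice were male wild-type C57BL/6 J mice that received an adeno-associated virus (AAV) in the CA1 area on both sides at 8 weeks of age, carrying control shRNA in the controls and L-DL shRNA in the others. L-DL is the long isoform of the RNA binding protein hnRNP DL, and the study compared the groups to see which transcripts and splice forms differ when it is lowered. The L-DL shRNAs were driven by the H1 promoter, which is active in most cell types, the control virus had a higher titre than the L-DL virus, and the vector carried a green fluorescent protein under the CamkIIα promoter. The virus went to CA1 while the tissue is labelled hippocampus, and the interval between injection and RNA extraction for sequencing was not given in the sources used here. The labels call the treated mice hnRNP DL-/- in one field and hnRNP DL KD in another.

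Total gene counts ranged from 16052529 to 16995425 in the controls and from 16525467 to 17913064 in libraries labelled L-DL KD. Hnrnpdl (ENSMUSG00000029328), the targeted gene, had 2862, 3120 and 2689 counts in the controls and 3939, 2680 and 2904 in libraries labelled L-DL KD, with a log2 fold change of 0.03 (standard error 0.125, adjusted p = 0.898, edgeR). Its gene count therefore did not separate the groups, and because the count joins the long and the short isoform it cannot check the long one. The study assessed the knockdown as protein, by immunoblots of L-DL in injected hippocampus, and described the mice as having reduced L-DL. The defining neuronal markers were abundant in all 6 libraries, with a summed level of 2710 to 4183 CPM (counts-per-million, scaled by TMM). The summed choroid plexus markers Ttr, Kl and Folr1 ranged from 26.04 to 4996 CPM without separating the groups. The labels number the libraries of a group as replicates without saying that each came from a separate mouse, so p-values measure only the spread between these libraries, which may be technical.

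Synaptotagmins are membrane proteins that carry a tandem of C2 domains on the cytoplasmic side. In several members these domains bind calcium and then phospholipids and the SNARE complex, which couples calcium entry to the fusion of synaptic vesicles and dense-core vesicles. Other members lack the calcium-binding residues and act in membrane traffic or endocytosis. In the forebrain Syt1 is the main sensor for fast, synchronous transmitter release, whereas Syt7 is a slower sensor of higher affinity tied to asynchronous release and facilitation.

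The 2 splicing differences that passed the test among the 10 members lay in the linker between the membrane anchor and the first C2 domain of Syt1 and in the corresponding linker of Syt7. These alternative segments are shown as sequences because the results turn on whether they are joined into the transcript. They are from GENCODE M21 transcripts of the GRCm38 build, 5′ to 3′ on the transcript strand, with the alternative segment in capitals and flanking exon sequence in lower case. The Syt1 segment is the 9 nt at chr10:108636665-108636673 on the minus strand, between a pair of alternative acceptor sites, and adds codons 117 to 119 of a coding sequence of 421 codons.
Syt1 with the 9 nt: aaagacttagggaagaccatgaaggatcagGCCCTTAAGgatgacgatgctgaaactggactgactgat
Syt1 without the 9 nt: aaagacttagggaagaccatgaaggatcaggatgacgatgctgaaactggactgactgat
The annotated transcript that lacks the 9 nt has no coding sequence in GENCODE, and the segment itself ends with AG.

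The Syt7 segment is a 228 nt exon at chr19:10422785-10423012 on the plus strand. It is one of several alternative exons between an 80 nt exon at chr19:10417963-10418042 and a 136 nt exon at chr19:10435550-10435685. The others are a 132 nt exon at chr19:10421757-10421888 and a 369 nt exon at chr19:10426299-10426667. The lengths of the 132, 228 and 369 nt exons are multiples of 3, and these exons add 44, 76 and 123 codons to the longest annotated coding sequence of 687 codons. The 228 nt exon holds no in-frame stop codon and has 73.2% G and C, against 47% in the 132 nt exon and 68.8% in the 369 nt exon.
Syt7 with the 228 nt exon: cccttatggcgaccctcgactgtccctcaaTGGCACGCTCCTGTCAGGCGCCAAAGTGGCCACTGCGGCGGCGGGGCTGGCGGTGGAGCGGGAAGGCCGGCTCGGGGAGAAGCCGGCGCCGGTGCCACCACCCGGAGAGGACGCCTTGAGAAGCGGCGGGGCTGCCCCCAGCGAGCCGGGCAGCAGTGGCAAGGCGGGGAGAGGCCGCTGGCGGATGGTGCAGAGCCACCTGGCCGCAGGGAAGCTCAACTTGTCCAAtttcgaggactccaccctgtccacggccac
Syt7 without the 228 nt exon: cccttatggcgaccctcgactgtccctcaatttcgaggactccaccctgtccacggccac
The 132 nt exon, shown next in capitals with 30 nt on each side, precedes the 228 nt exon in that transcript. The listed junctions that leave it were counted one by one.
Syt7 132 nt exon: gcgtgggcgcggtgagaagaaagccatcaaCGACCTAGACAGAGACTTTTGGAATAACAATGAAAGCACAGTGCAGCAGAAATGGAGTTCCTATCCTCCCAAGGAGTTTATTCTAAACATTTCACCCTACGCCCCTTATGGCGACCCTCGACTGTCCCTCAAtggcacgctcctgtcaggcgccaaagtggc
Of the 9 protein-coding Syt7 transcripts in GENCODE, 5 contain the 228 nt exon, 1 contains all 3 alternative exons and 1 contains none of them.

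In the controls the family was led by Syt11 and Syt1 on a per-length scale, which divides the CPM by the summed exon length of the gene. Syt11 stood at 124 CPM per kb and Syt1 at 119 CPM per kb, with overlapping libraries. Syt7 followed at 60.1 CPM per kb, Syt13 at 52.6, Syt5 at 43.2, Syt4 at 25.7, Syt3 at 16.1 and Syt17 at 10.2, with no overlap between neighbours. Below them came Syt16 at 4.17, Syt2 at 3.71, Syt10 at 3.08, Syt12 at 2.83 and Syt14 at 2.45 CPM per kb, where Syt2 overlapped Syt10 and Syt10 overlapped Syt12. Syt9 at 1.44 and Syt6 at 1.18 CPM per kb overlapped each other, Syt15 stood at 0.314, and Syt8 at 0.086 CPM per kb was the lowest.

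The order was different in libraries labelled L-DL KD. Syt11 still led at 88.8 CPM per kb, but Syt1 at 62.8 now overlapped Syt13 at 57.3 CPM per kb. Syt7, at 34.1 CPM per kb, lay below Syt5 at 42.5 with overlapping libraries. Syt2 moved from the rank of 10 to the rank of 15, at 1.09 CPM per kb. Summed over the 17 genes, the family level was 2779, 2644 and 2741 CPM in the controls and 1958, 1765 and 1645 CPM in libraries labelled L-DL KD. The share of Syt1 in the family's per-length total was 24.1% to 26.6% in the controls and 17.4% to 19.5% in the other group, while that of Syt13 was 11% to 11.5% and 15% to 20.3%.

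Of the 10 members, all of which passed the filter on low counts, 6 were lower in libraries labelled L-DL KD at an adjusted p under 0.05 (edgeR's quasi-likelihood test, Benjamini-Hochberg over all 17621 genes tested) and 4 were not called. Over all genes tested 15.0% were called lower and 15.6% higher. The median log2 fold change was -0.51 over the members and 0.0059 over all genes. The libraries of the groups did not overlap for 8 of the 10 members, against 47.2% of all genes tested.

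**Figure D1:**
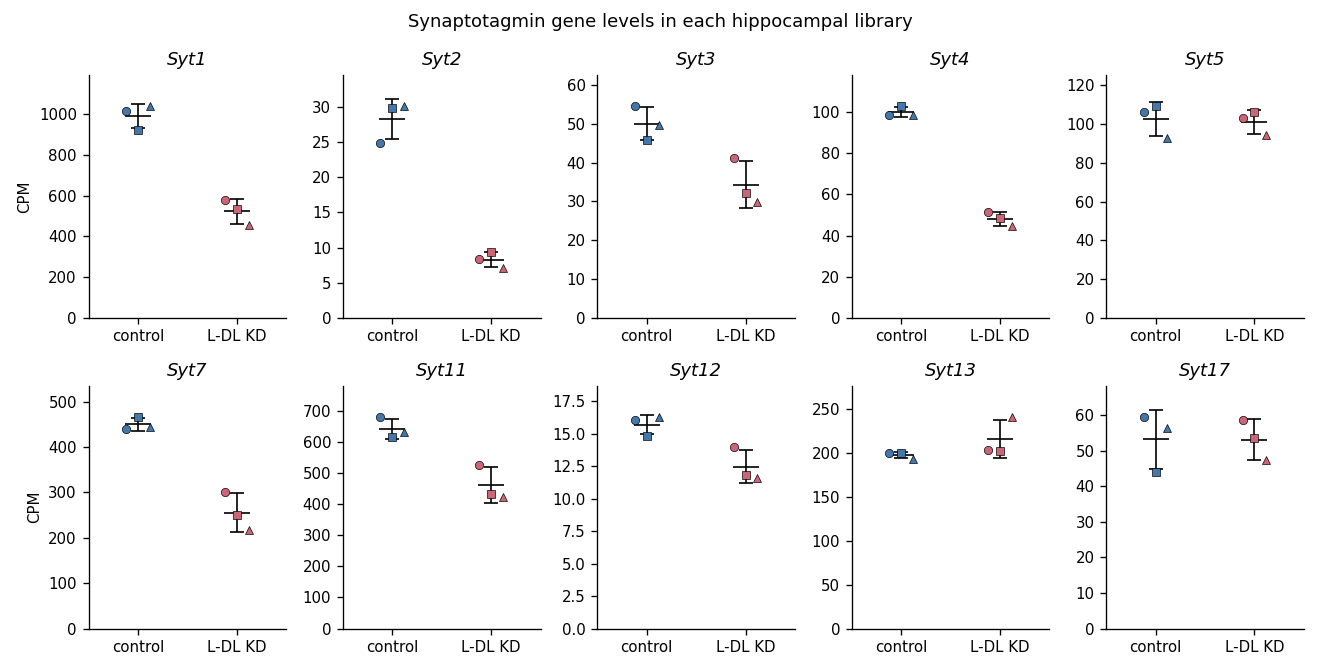
Level of each of the 10 synaptotagmin genes in CPM (y axis from 0) in the 3 control and 3 L-DL KD libraries. Circles, squares and triangles are replicates 1, 2 and 3, and the bars give the mean and the SD. The groups lie apart for Syt1, Syt2, Syt3, Syt4, Syt7, Syt11, Syt12 and Syt13 and overlap for Syt5 and Syt17.

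Syt1 (ENSMUSG00000035864, chr10:108497650-109010982), the fast calcium sensor on synaptic vesicles, had 1015, 924.3 and 1038 CPM in the controls. The libraries labelled L-DL KD had 578.8, 535.2 and 456.7 CPM, so the highest of them lay well below the lowest control. The mean fell from 992.5 ± 60.2 to 523.6 ± 61.9 CPM (SD, n = 3 each), a log2 fold change of -0.92 (standard error 0.10, adjusted p = 0.000564, edgeR), or 1.90-fold lower.

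Syt2 (ENSMUSG00000026452, chr1:134646677-134762593) is the fast sensor of hindbrain synapses and, in the hippocampus, of some inhibitory terminals. Its levels were 24.96, 29.89 and 30.1 CPM in the controls and 8.43, 9.308 and 7.152 CPM in libraries labelled L-DL KD. With a log2 fold change of -1.77 (standard error 0.14, adjusted p = 0.000205, edgeR), or 3.41-fold lower, this was the largest difference among the 10. Per length, Syt2 is a low-level gene of this family, as given above.

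Syt7 (ENSMUSG00000024743, chr19:10389090-10453180), the slow high-affinity sensor, stood at 439.5, 465.7 and 444.6 CPM in the controls. It stood at 300.6, 249.4 and 217.1 CPM in libraries labelled L-DL KD, with a log2 fold change of -0.82 (standard error 0.11, adjusted p = 0.00157, edgeR). Syt3 (ENSMUSG00000030731, chr7:44384102-44400187), another high-affinity sensor, had 54.48, 45.95 and 49.78 CPM against 41.21, 32.07 and 29.8 CPM. The groups of Syt3 lay close, and its log2 fold change of -0.54 (standard error 0.13, adjusted p = 0.0162, edgeR) lost its call without control replicate 1 (adjusted p = 0.0686), control replicate 3 (0.0533) or L-DL KD replicate 2 (0.0588).

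Syt4 and Syt11, which do not act as calcium sensors of fast release, were also lower. Syt4 (ENSMUSG00000024261, chr18:31437808-31447406), found on dense-core vesicles, was at 98.43, 102.8 and 98.68 CPM in the controls and at 51.29, 48.39 and 44.58 CPM in libraries labelled L-DL KD. Its spread within each group was small, and the difference was -1.06 on the log2 scale (standard error 0.074, adjusted p = 0.000134, edgeR), or 2.08-fold lower. Syt11 (ENSMUSG00000068923, chr3:88744700-88775164), which does not bind calcium and acts in endocytosis, was at 680.6, 618.5 and 632.2 CPM against 528.4, 434.9 and 422.9 CPM. This was a log2 fold change of -0.48 (standard error 0.10, adjusted p = 0.00818, edgeR), and every fit with a library left out kept the call, with an adjusted p of at most 0.0407.

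The remaining members were not called. Syt12 (ENSMUSG00000049303, chr19:4445908-4477447), a synaptic vesicle protein that does not depend on calcium, had 16.02, 14.83 and 16.26 CPM in the controls and 13.94, 11.83 and 11.62 CPM in libraries labelled L-DL KD. Although its groups did not overlap, the log2 fold change of -0.33 (standard error 0.13) had an adjusted p of 0.0802 (edgeR), and without L-DL KD replicate 1 Syt12 was called (-0.42, adjusted p = 0.0313). Syt13 (ENSMUSG00000027220, chr2:92915098-92956058), whose C2 domains do not bind calcium, had 200.2, 199.7 and 193.5 CPM against 203.5, 202.6 and 240.5 CPM, with a log2 fold change of 0.12 (standard error 0.08, adjusted p = 0.29, edgeR). Syt5 (ENSMUSG00000004961, chr7:4539765-4547541), a vesicle member with calcium-binding C2 domains, ranged from 92.84 to 109.1 CPM over the 6 libraries. Syt17 (ENSMUSG00000058420, chr7:118380717-118448222), which lacks the usual membrane anchor, ranged from 43.89 to 59.41 CPM. For Syt5 and Syt17 the log2 fold changes were within 1 standard error of 0, at -0.02 (standard error 0.08) and -0.001 (standard error 0.13).

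Of the other synaptotagmin genes, 6 passed the filter and Syt16, a member without calcium binding, was lower, from 41.11, 36.77 and 36.51 to 19.39, 21.31 and 17.82 CPM. This was a log2 fold change of -0.97 (standard error 0.11, adjusted p = 0.00057, edgeR). The other 5 were not called: Syt14 had a log2 fold change of 0.16 (adjusted p = 0.335, edgeR), Syt6 0.18 (0.545), Syt9 -0.17 (0.745), Syt10 0.40 (0.435) and Syt15 0.02 (0.979). Without L-DL KD replicate 1 Syt10 was called higher (0.73, adjusted p = 0.0278, edgeR). Syt8, at 0.127 to 0.185 CPM in the controls and 0.386 to 1.01 CPM in libraries labelled L-DL KD, had too few counts to pass the filter.

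**Figure D2:**
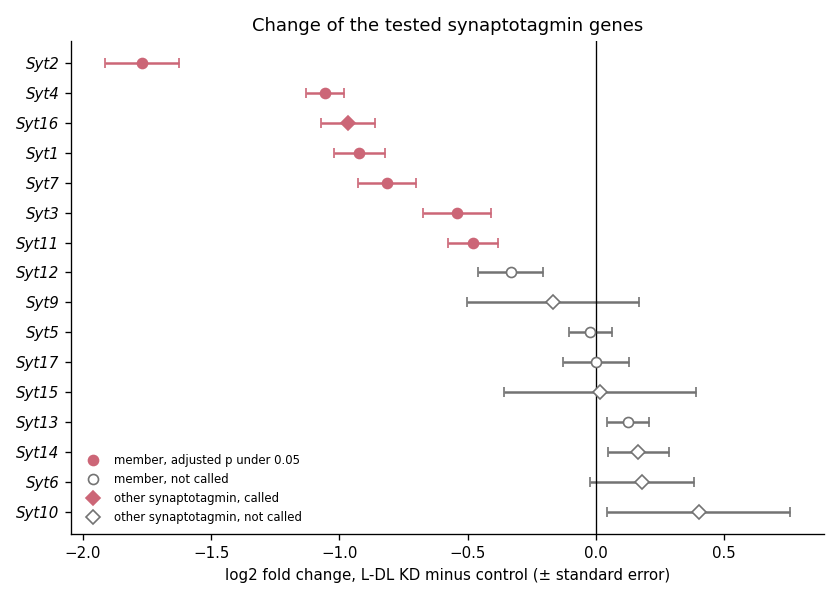
Log2 fold change (x axis, libraries labelled L-DL KD minus control, with the standard error) of the 16 synaptotagmin genes tested. Red symbols have an adjusted p under 0.05 (edgeR), open grey symbols do not, circles are the 10 members and diamonds the others. Syt2, Syt4, Syt16, Syt1, Syt7, Syt3 and Syt11 lie left of 0, from -1.77 to -0.48.

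Lower counts of a gene in bulk hippocampus can come from fewer cells that express it or from less RNA per cell, and these cannot be told apart here. The summed neuronal markers moved in the same direction, from 4183, 4038 and 4127 CPM in the controls to 3171, 3151 and 2710 CPM. Of these 8 markers, 6 were lower, 1 (Nefl) was higher and 1 (Syn1) was not called. Snap25 fell from a mean of 1334 to 664.5 CPM, Map2 from 898.2 to 699.9 and Eno2 from 599.2 to 480.5 CPM, while Syn1 had 381.7 and 332 CPM. The part of this shift in the synaptotagmin levels was not tested, but each member was also set against the marker sum of its own library.

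Measured in this way, Syt1 was 24.3%, 22.9% and 25.2% of the neuronal marker sum in the controls and 18.3%, 17% and 16.9% in libraries labelled L-DL KD, so the groups stayed apart. Syt2 was 0.597% to 0.74% against 0.264% to 0.295%, Syt4 2.35% to 2.55% against 1.54% to 1.65%, and Syt7 10.5% to 11.5% against 7.91% to 9.48%, also without overlap. For Syt3, at 1.14% to 1.3% and 1.02% to 1.3%, and for Syt11, at 15.3% to 16.3% and 13.8% to 16.7%, the groups overlapped. Syt12 turned from lower to slightly higher, at 0.367% to 0.394% and 0.375% to 0.44%, with overlapping groups. Syt5, Syt13 and Syt17 were higher relative to the marker sum in each library labelled L-DL KD than in any control. The comparison rests on a marker list that includes Snap25, itself a partner of Syt1, and was added after the gene levels had been seen.

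Markers of excitatory neurons, 3 of 4 called lower, summed to 5076 to 5399 CPM in the controls and 2973 to 3383 CPM in libraries labelled L-DL KD. Camk2a had a log2 fold change of -0.73, Slc17a7 -0.49 and Neurod6 -2.21. Markers of GABAergic interneurons, 5 of 8 called lower, summed to 632.8 to 706.9 CPM and 245.9 to 454.2 CPM, with log2 fold changes of -1.06 for Gad1, -1.16 for Gad2, -1.42 for Sst and -1.25 for Slc32a1. Pvalb, which marks the interneurons best known for Syt2, was not called, with 18.04 ± 0.52 and 21.9 ± 5.11 CPM (SD, n = 3). All 6 microglial markers were higher, with a sum of 567.8 to 688 CPM in the controls and 1302 to 1525 CPM in libraries labelled L-DL KD. Among them Csf1r had a log2 fold change of 1.34, Cx3cr1 1.53 and Tmem119 0.60.

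Other marker lists moved less evenly. Of 4 CA1 markers, 2 were lower (Wfs1, log2 fold change -0.73, and Pou3f1, -1.68) and 2 were not called (Fibcd1, 0.31, and Man1a, -0.06). Of 4 CA3 markers, 2 were lower (Nptx1, -0.53, and Cpne4, -1.44), 1 was higher (Bok, 0.89) and Grik4 (-0.35) was not called. Of 4 dentate granule cell markers, Dsp (-1.05) was lower, and Prox1 (0.29), Calb1 (-0.08) and C1ql2 (-0.51) were not called. Of 5 astrocyte markers, Slc1a3 (-0.40) and Gja1 (-0.67) were lower, Aqp4 (0.67) was higher and Gfap (-0.18) was not called, as was the remaining one. Of 5 oligodendrocyte markers, Mag (0.71) was higher, and Mbp (0.03) and Cnp (0.32) were not called. Of 4 endothelial markers, Cldn5 (1.08) and Pecam1 (0.61) were higher, and Flt1 (0.10) and Kdr (0.64) were not called. The 3 choroid plexus markers were not called, with log2 fold changes of -0.34 for Ttr, -0.40 for Kl and -0.22 for Folr1. Of 5 genes of thalamus or striatum, Tcf7l2 (0.59) was higher, Prkcd (0.22), Ppp1r1b (-0.65) and Drd2 (-0.90) were not called, and Drd1, named after its values were seen, was higher (2.56), from 3.01 ± 1.41 to 17.7 ± 2.61 CPM (SD, n = 3). The part of these cell types in the synaptotagmin differences was not tested.

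**Figure D3:**
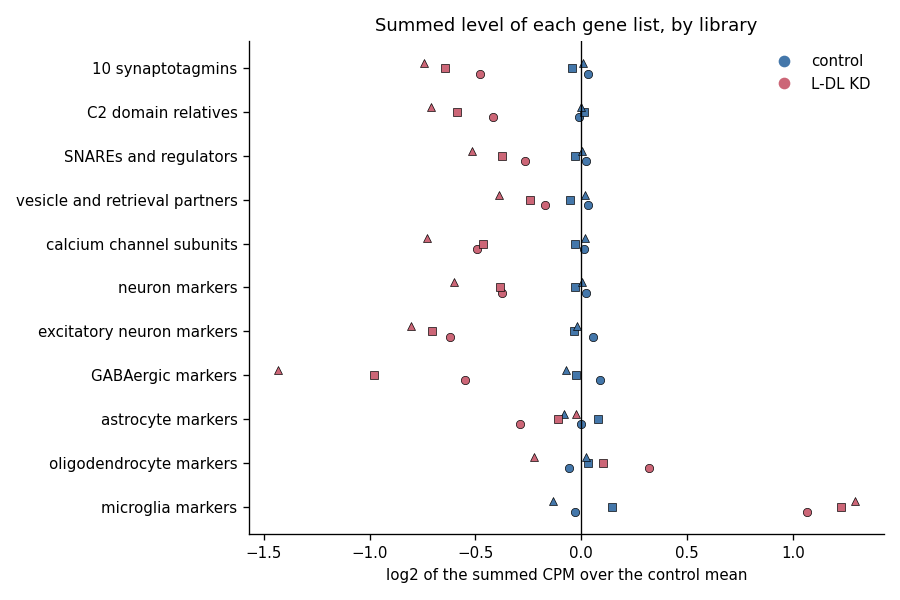
Summed CPM of each gene list in each library, as the log2 of its ratio to the control mean (x axis). Blue symbols are controls, red symbols are libraries labelled L-DL KD, and circles, squares and triangles are replicates 1, 2 and 3. The 10 synaptotagmins and the neuronal lists lie left of 0 and the microglial markers right of 0 in libraries labelled L-DL KD.

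The genes of proteins that synaptotagmins act with moved in both directions. The SNARE complex joins vesicle and plasma membrane, and complexins, NSF and the SNAPs control its assembly and disassembly. Of 18 such genes tested, 7 were lower and 5 higher, with a median log2 fold change of -0.23. Snap25, the plasma membrane SNARE that Syt1 binds, had a log2 fold change of -1.005 (adjusted p = 0.000369, edgeR), from 1334 ± 19.8 to 664.5 ± 84.6 CPM. Cplx2 had 1083 and 875.4 CPM (log2 fold change -0.31, adjusted p = 0.0923) and Nsf 885.1 and 879.1 CPM (-0.01, 0.942), and neither was called. Vamp2, the vesicle SNARE, was lower only slightly, from 720.9 ± 25.2 to 628.3 ± 13.4 CPM (log2 fold change -0.20, adjusted p = 0.0498, edgeR). The 5 that were higher, named after their values were seen, were Stx3 (log2 fold change 1.01), Vamp3 (0.66), Napa (0.48), Snap23 (0.36) and Stx2 (0.34). A further list gene, Vamp7, was not matched in the table.

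C2 domain proteins outside the family were lower in 7 of 18 cases and higher in 1, with a median log2 fold change of -0.13. Rph3a, a Rab3 effector on synaptic vesicles, fell from 395.5 ± 33.0 to 240.7 ± 47.2 CPM (log2 fold change -0.72, adjusted p = 0.00627, edgeR). Cadps, a priming factor of dense-core vesicles, fell from 245.8 ± 12.5 to 161.4 ± 12.8 CPM (-0.61, 0.00121). Doc2b, a high-affinity calcium sensor of spontaneous and asynchronous release, fell from 127.7 ± 8.23 to 39.21 ± 3.89 CPM (-1.70, 7.9e-05). Esyt2, which tethers the endoplasmic reticulum to the plasma membrane, had 64.52 and 72.04 CPM (0.16, 0.34) and was not called.

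Vesicle proteins and adaptors that bind synaptotagmin or retrieve it were called lower in 4 of 12 cases and higher in 1, with a median log2 fold change of 0.05. Ap2b1, a subunit of the clathrin adaptor AP2, fell from 389.7 ± 28.9 to 224.1 ± 22.6 CPM (-0.80, adjusted p = 0.000796, edgeR), whereas Ap2m1, the AP2 subunit that binds cargo, had 378 and 362.2 CPM (-0.06, 0.583). Sv2b, a vesicle protein that binds synaptotagmin, fell from 293 ± 30.4 to 118.8 ± 23.3 CPM (-1.30, 0.000651), and Sv2a from 349.2 ± 8.04 to 287.9 ± 26.5 CPM (-0.28, 0.0317). The other gene of this trio, Sv2c, named after its values were seen, was the one called higher, from 39.8 ± 4.32 to 71.8 ± 14.9 CPM (0.85, 0.00522).

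The presynaptic calcium channels supply the calcium that synaptotagmins sense. Of 10 subunit genes, 9 were lower and 1 was not called, with a median log2 fold change of -0.59. Cacna1e fell from 428.8 ± 8.54 to 303.1 ± 49.4 CPM (-0.50, adjusted p = 0.0113, edgeR), Cacna1a, the pore of P/Q-type channels, from 176.5 ± 4.24 to 125.2 ± 6.65 CPM (-0.50, 0.00136), Cacna2d1 from 160.1 ± 9.40 to 126.4 ± 14.1 CPM (-0.34, 0.0274), and Cacnb3 from 155.1 ± 11.8 to 96.51 ± 19.8 CPM (-0.68, 0.00792). Like the synaptotagmins, this list moved in the direction of the neuronal markers.

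The genes whose pattern over the 6 libraries was most like that of Syt1 were sought among 11016 genes with a mean of at least 10 CPM. Sv2b had a Pearson correlation of log2 CPM with Syt1 of 0.999, March6 of 0.9989, Gmpr2 of 0.9987, Serinc1 of 0.9985 and Baalc of 0.9981. The 6 points fall into the 2 groups, so these values are descriptions and carry no test. Sv2b, for example, had 307.4, 258.1 and 313.4 CPM in the controls and 140.6, 121.6 and 94.28 CPM in libraries labelled L-DL KD, in the same order as Syt1. The size of the difference was not shared, since the log2 fold changes of these genes ran from -1.30 for Sv2b to -0.22 for Gmpr2 (adjusted p = 0.103, edgeR).

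The splicing table lists 9 events in Syt1, 7 in Syt7, 2 each in Syt5 and Syt13 and 1 each in Syt3, Syt12 and Syt17, and none in Syt2, Syt4 and Syt11. Of these 23 events, 11 had a mean of at least 20 junction counts per library and at least 1 of each form and were tested. The other 12 were included almost fully, with a lowest PSI of 0.96 in any library, where PSI is the share of transcripts that include the segment after correction for the length of each form. In the edgeR test on both forms 2 of the 11 were called (Benjamini-Hochberg over all 18829 events tested), against 0.255% of all events tested. The same 2 of the 11 events had groups that did not overlap, which is near the share of 18.4% over all events tested.

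The 9 nt of Syt1 was included in 493, 483 and 539 junction counts and skipped in 305, 277 and 344 in the controls. In libraries labelled L-DL KD it was included in 409, 497 and 357 counts and skipped in 97, 84 and 55. PSI was 0.605, 0.623 and 0.598 in the controls and 0.80, 0.849 and 0.86 in the other group, each of the latter above each control. The mean rose from 0.609 ± 0.013 to 0.836 ± 0.032 (SD, n = 3), a change of 0.228 (adjusted p = 0.02, edgeR). Scaled to CPM with the gene counts as the total, the form with the 9 nt went from 31 ± 2.96 to 23.9 ± 3.5 and the form without it from 19 ± 2.78 to 4.44 ± 1.06, so the form without it lost more counts than the form with it.

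The 228 nt exon of Syt7 showed the largest change in PSI among the 11 events tested. Read between the 132 nt exon and the 369 nt exon, its PSI was 0.277, 0.326 and 0.286 in the controls and 0.659, 0.796 and 0.849 in libraries labelled L-DL KD. The event rested on 270 to 308 counts per control library and 135 to 190 in the other group. The mean rose from 0.296 ± 0.026 to 0.768 ± 0.098, a change of 0.472 (adjusted p = 0.0157, edgeR). The included form was level, at 8.19 ± 0.85 and 8.15 ± 0.69 CPM, and the skipped form went from 9.74 ± 0.996 to 1.31 ± 0.76. An included exon is counted on both its junctions and a skipped one on a single junction, which PSI corrects for and these levels do not. The same exon is listed in another event, described after its values were seen, that is read from the 80 nt exon and not from the 132 nt exon. There its PSI was 0.961, 0.873 and 0.885 in the controls and 0.937, 1 and 0.833 in libraries labelled L-DL KD, on 66 to 131 counts. The means of 0.906 ± 0.048 and 0.923 ± 0.084 did not pass the test (change 0.0172, adjusted p = 0.888, edgeR), and the groups overlapped. The skipped form of that event is the junction from the 80 nt to the 369 nt exon. It had 2 to 8 counts in the controls and 0 to 6 in the other group. The included form consists mostly of the exit of the 228 nt exon towards the 369 nt exon, which the first event shares. The junction from the 80 nt to the 228 nt exon had 6, 13 and 25 counts in the controls. In the other group it had 7, 5 and 1. So this PSI is not the share of junctions leaving the 80 nt exon that join the 228 nt exon.

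Both calls depended on single libraries and on the test. With limma on the log2 ratios of the forms the adjusted p was 0.166 for the Syt1 segment and 0.145 for the Syt7 exon, so neither was called. In that fit 0 of all 18829 events tested were called. With each library left out of the edgeR fit in turn, the adjusted p ranged from 0.0166 to 0.156 for the Syt1 segment and from 0.0138 to 0.11 for the Syt7 exon, and was under 0.05 in 1 of 6 fits, the one without L-DL KD replicate 1. The directions did not change, with PSI changes of 0.216 to 0.246 for Syt1 and 0.431 to 0.526 for Syt7.

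**Figure D4:**
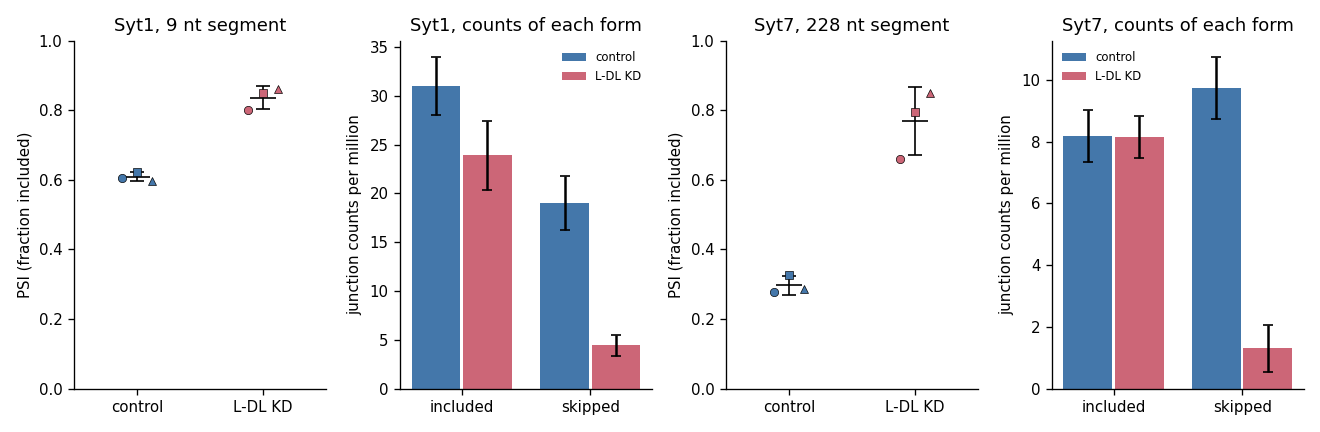
PSI of the Syt1 9 nt segment and the Syt7 228 nt exon in each library (points, with mean and SD, y axis from 0 to 1), each followed by the junction counts, scaled to CPM, of the included and the skipped form (bars, mean and SD of 3 libraries). PSI is higher in each library labelled L-DL KD than in each control. The skipped form is lower for both, and the included form is lower for Syt1 and level for Syt7.

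The overlapping Syt7 events could be solved for the count of each single junction, and a sum held back from the solution equalled its listed value in 6 of 6 libraries. From the 132 nt exon to the 369 nt exon the counts were 153, 152 and 171 in the controls and 39, 20 and 11 in libraries labelled L-DL KD. From the 132 nt exon to the 228 nt exon they were 25, 50 and 39 in the controls and 69, 68 and 65 in the other group. So the 228 nt exon took 13.4%, 24.5% and 17.9% of the listed junctions leaving the 132 nt exon in the controls, and 61.6%, 77.3% and 85.5% in libraries labelled L-DL KD. The means were 18.6% ± 5.58 and 74.8% ± 12.1 (SD, n = 3). This share was chosen after the events had been seen and carries no test.

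Scaled to CPM, the junction from the 132 nt exon to the 369 nt exon went from 9.76 ± 1.02 to 1.31 ± 0.77 and the one to the 228 nt exon from 2.32 ± 0.71 to 3.83 ± 0.04. The exit of the 228 nt exon towards the 369 nt exon was at 5.87 ± 0.31 and 4.32 ± 0.73. In the controls the 228 nt exon was left more often than it was entered through the listed junctions, with 92, 97 and 98 counts against 31, 63 and 64. In libraries labelled L-DL KD the counts were 82, 88 and 59 against 76, 73 and 66. GENCODE lists a transcript, marked as subject to nonsense-mediated decay, in which another exon of 123 nt at chr19:10422395-10422517 precedes the 228 nt exon, and junctions of that exon are not among the events listed for Syt7. The share of junctions leaving the 132 nt exon therefore leaves out any that join this 123 nt exon.

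The 132 nt exon itself did not pass the test in any of its events. Of the listed junctions leaving the 80 nt exon before it, 89.6%, 82.7% and 80.5% joined it in the controls and 88.2%, 94.9% and 84.4% in libraries labelled L-DL KD, with overlapping groups. Its PSI changes in the 3 events were 0.060 (adjusted p = 0.417, edgeR), -0.019 (0.902) and 0.045 (0.635).

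**Figure D5:**
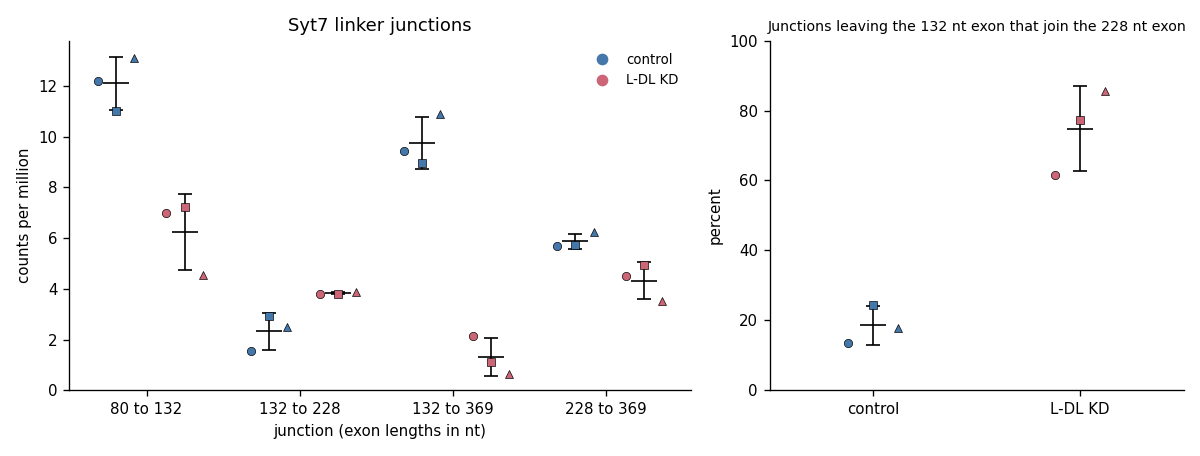
Left, counts, scaled to CPM, of 4 junctions of the Syt7 linker, named by the lengths in nt of the exons they join. Right, percent of the listed junctions leaving the 132 nt exon that join the 228 nt exon. Points are libraries, and bars are the mean and SD of 3 libraries. The junction from the 132 nt to the 369 nt exon is the one that falls most, and the percentage rises from 13.4% to 24.5% in the controls to 61.6% to 85.5% in libraries labelled L-DL KD.

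None of the other events passed the test. Exons of 66 and 101 nt before the start codon of Syt1 are listed as a mutually exclusive pair. That event had a PSI of 0.585 ± 0.010 in the controls and 0.625 ± 0.028 in libraries labelled L-DL KD (adjusted p = 0.746, edgeR). It is not a choice between the exons, because each was included nearly always beside the other. The 66 nt exon, described after its values were seen, had a PSI of 0.9892 ± 0.0034 and 0.9905 ± 0.0064 (adjusted p = 0.983, edgeR). The 101 nt exon, the tested event of Syt1 with the most counts, was included nearly always, with a PSI of 0.996 ± 0.007 and 0.998 ± 0.003 (adjusted p = 0.783, edgeR). A 27 nt segment before the start codon of Syt3 had a PSI of 0.333 ± 0.080 and 0.414 ± 0.095 (adjusted p = 0.829, edgeR) on 29 to 66 counts, with a change of 0.0805 that was about as large as the SD of either group.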

How the data were processed

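Gene expression and splicing were compared between 3 control and 3 L-DL KD hippocampus libraries. The authors deposited raw counts per Ensembl gene, not normalized, aligned to GRCm38, and other columns that hold the rMATS (version 4.1.0) junction counts of the included and the skipped form of each event for 3 libraries of each group. The submitters' processing notes name HISAT2 2.1.0, HTSeq 0.6.1 and Bowtie 1.1.2 without a role, and whether counting used strand was not given in the sources used here, so antisense or overlapping transcripts cannot be told apart. The authors' p-values, FDR and PSI differences were not used. The splicing table does not name its libraries. The group listed first was taken as L-DL KD from the sign of the PSI difference that the study defines. This was checked against the gene counts, where junction and gene count differences between the groups had a Spearman rho of 0.904 across 6816 genes. Listed libraries were matched to replicates by order, and each correlated best with the same-numbered count column.

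Gene counts were scaled by TMM to CPM and tested with edgeR (version 4.0.16, glmQLFTest) where 3 or more libraries had a count of at least 10. Junction counts were tested in edgeR with 12 columns, 1 per form and library, library effects, an inclusion effect and its change between the groups. Adjusted p-values are Benjamini-Hochberg values over all genes or events tested, called under 0.05. Both fits were tested on simulated data. PSI was computed per library from the deposited counts and effective lengths. Alternatives used library size scaling, DESeq2 (version 1.42.0), other filters, a replicate block (for splicing chosen after seeing the data), limma (version 3.58.1) with a pseudocount of 0.5, and each library left out in turn. A single value of 3 against 3 cannot go below p = 0.1 in a two-sided exact permutation test, so none was run. Work was done in R 4.3.3 and Python 3.11.15. Exons and sequences come from GENCODE M21 (GRCm38), and 52403 of 52550 gene IDs matched a symbol.

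The members and gene lists were chosen with earlier results of these data known. All synaptotagmin genes are named. Of each other list the 4 genes with the highest mean control CPM are named and the rest counted, apart from some that are not reported here. Of the splicing events, the tested event with the most counts per member and the 6 with the largest PSI difference are named. The genes most like Syt1 are the 5 with the highest Pearson correlation.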

Additional observations from a re-analysis of the deposited data

How the results depend on the processing

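The count of members called lower stayed at 6 with library size scaling, no filter, a minimum of 30 counts, DESeq2 and the replicate block, and ranged from 5 to 7 with each library left out. The labels give both groups replicate numbers 1 to 3, but same-numbered libraries deviated together with correlations of only 0.0535, 0.127 and -0.107, so they share a number and not a pairing. With the replicate number as a block 4635 genes were called over the whole table against 5379 without it, and 6 members. Without a filter 2 other synaptotagmin genes, Syt16 and Syt8, were called instead of 1, and with a library left out 1 to 2. Unlike Syt16, Syt8 had more CPM in libraries labelled L-DL KD than in the controls. The number of calls in each list of related genes changed by at most 1 with library size scaling or DESeq2, the alternatives run for them. Of the members not called, Syt5 and Syt17 changed sign, to log2 fold changes of 0.00902 and 0.0323 with library size scaling, Syt17 to 0.00474 with the block, and both within -0.0916 to 0.0292 and -0.124 to 0.0839 with a library left out. Of the other genes, Syt15 changed to -0.0208 with the block and ranged from -0.379 to 0.238, and Syt9 from -0.547 to 0.104, with a library left out. The splicing table carries no replicate numbers. With its libraries numbered as they correlate with the count columns, a replicate block chosen after seeing the data called 144 events over the whole table against 48 without it, and 2 of the members, with an adjusted p of 0.00485 for the Syt1 segment and 0.00128 for the Syt7 exon. Without the block 2 events were called at a mean of at least 10, 20 or 50 counts and 0 with limma, where 2475 of 18829 events had an unadjusted p under 0.05 and the adjusted p was 0.166 for the Syt1 segment and 0.145 for the Syt7 exon. With a library left out 0 to 2 events were called, and the PSI change of the Syt7 132 nt exon in one event ranged from -0.0433 to 0.014. Over all events, edgeR called 48 and between 0 and 52 with a library left out. The causes were not tested. Of the tested events that of Syt3 had the lowest mean count, with 29 to 66 junction counts per library.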
